A study of Mus musculus with 21 samples.

Results

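Collagens are the triple-helical proteins of the extracellular matrix, and the account below covers the genes that encode their chains. A gene was taken when its whole symbol reads Col, a number, a and a number, and when it had at least 1 count in at least 3 libraries. Of 21878 genes in the deposited table, 44 carried such a symbol and 41 met the count rule. Col10a1 and Col6a5 had counts in 1 library each and Col6a4 in 2, so they fell outside it. Col4a3bp, whose symbol only starts like that of a collagen, encodes a ceramide transfer protein and was left out.

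The libraries came from spiral ganglion neurons, the first neurons of the auditory pathway, of mice at postnatal day 7. About 50 neurons drawn into a micropipette made 1 library, and polyA RNA was copied by Smart-seq2, a full-length cDNA method for small inputs. Adeno-associated virus had delivered a site-mutated HCN2 channel meant to act in a dominant-negative way (DN-HCN2), a truncated SK3 channel meant to do the same, or EGFP as the control, which the genotype label calls WT. HCN2 is a cation channel that opens on hyperpolarization, and SK3 is a calcium-activated potassium channel. Neurons were taken from the base and from the apex of the cochlea, with 3 DN-HCN2 base, 4 DN-HCN2 apex, 3 truncated SK3 base, 3 truncated SK3 apex, 4 control base and 4 control apex libraries. All groups, controls included, had received virus. The labels name biological replicates but neither the promoter of the virus nor the animals behind each pool, so p-values measure the spread between these libraries.

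Collagen chains fold into triple helices in the endoplasmic reticulum, are cut and cross-linked outside the cell, and are held there by receptors such as integrins. Fibrillar collagens build cables, FACIT collagens sit on the surface of those cables, and type IV collagen forms the sheet of basement membranes together with laminins and nidogens. In the cochlea, collagens of types II, IX and XI make up much of the tectorial membrane and spiral ligament, and mutations in several of their genes cause deafness. In the ganglion, Schwann and satellite cells wrap the neurons and lay down a basement membrane around them.

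Library totals ran between 10411634 and 15138780 counts, and 1 count was worth 0.0653 to 0.102 CPM, counts scaled to a common library size. Levels in CPM use library totals scaled by TMM factors. Intervals and spreads cover counting and library variation only, since the reads carry no molecular identifiers. The summed level of 13 spiral ganglion neuron markers lay between 9417 and 18852 CPM in every library. The 9 Schwann and satellite glia markers also summed to between 9229 and 43768 CPM, so RNA of the wrapping glia was present throughout. Hcn2 had 14.6 to 122 CPM in DN-HCN2 libraries and 9.83 to 89.8 CPM in control libraries, and Kcnn3, which encodes SK3, had at most 1.94 CPM in truncated SK3 and at most 1.49 CPM in control libraries. Neither row passed the test in its own construct against control (edgeR adjusted p = 1.00 for Hcn2 and 0.949 for Kcnn3), and whether the delivered sequences can be counted in them is not given in the sources used here.

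Several of the genes described below share a promoter or a pattern, and the sequences next to their starts are shown for that reason. Col4a1 and Col4a2 start head to head on chromosome 8 and their first exons overlap by 22 bases. Col28a1 and Col25a1 are shown because they passed the test against control, and Col9a1, Col11a1 and Col11a2 because they encode cartilage-type collagens and were highest in DN-HCN2 base replicate 1. The windows are the 150 bases before the start site, from RefSeq on GRCm38.p6, read 5′ to 3′ on the strand of the gene, and capitals mark the TATA box letters TATAAA, the CAAT box letters CCAAT, the GC box letters GGGCGG and the SOX-type letters ACAATG or ACAAAG on either strand. The window of Col9a1 lies before the first of its starts and holds none of these letters. The RefSeq start of Col25a1 used here lies inside the gene as GENCODE M21 draws it, and that of Col11a2 before the start that GENCODE gives.
Col4a1 and Col4a2 overlap, chr8:11312805-11312826, plus strand: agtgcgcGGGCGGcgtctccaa
Col28a1, chr6:8192618-8192767, minus strand: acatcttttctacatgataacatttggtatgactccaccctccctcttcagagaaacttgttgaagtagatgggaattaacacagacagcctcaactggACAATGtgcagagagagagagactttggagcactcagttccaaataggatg
Col25a1, chr3:130180695-130180844, plus strand: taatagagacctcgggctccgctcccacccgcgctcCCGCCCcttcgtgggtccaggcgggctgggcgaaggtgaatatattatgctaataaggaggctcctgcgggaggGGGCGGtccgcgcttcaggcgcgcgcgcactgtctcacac
Col9a1, chr1:24177460-24177609, plus strand: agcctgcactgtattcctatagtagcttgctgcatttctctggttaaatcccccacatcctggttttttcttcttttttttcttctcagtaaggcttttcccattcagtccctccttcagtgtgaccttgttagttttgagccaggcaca
Col11a1, chr3:114030390-114030539, plus strand: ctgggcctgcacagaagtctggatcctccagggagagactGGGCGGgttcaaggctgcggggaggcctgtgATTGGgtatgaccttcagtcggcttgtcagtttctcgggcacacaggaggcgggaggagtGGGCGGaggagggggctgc
Col11a2, chr17:34038988-34039137, plus strand: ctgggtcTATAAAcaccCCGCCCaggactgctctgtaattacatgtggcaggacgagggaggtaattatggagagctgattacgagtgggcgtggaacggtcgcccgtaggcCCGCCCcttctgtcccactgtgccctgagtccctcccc

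Searched over the 250 bases before each start and on both strands, GGGCGG, the core of the GC box, occurred in 20 of 35 windows of 32 collagen genes, against 32.7% of all 32851 RefSeq windows of that length. TATAAA occurred in 4 collagen windows against 12.4% of all, and CCAAT in 12 against 33.8%. The SOX-type letters ACAATG or ACAAAG occurred in 3 collagen windows against 25.2% of all. None of these motifs contains another, and a match is a description of the sequence only. Col1a1, Col2a1, Col4a3, Col5a2, Col9a3, Col12a1, Col14a1, Col22a1 and Col26a1 were not matched in the table.

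In GENCODE M21 on GRCm38 all 41 members were found. The genes that passed a test lie at chr8:11198423-11312826 on the minus strand (Col4a1), chr8:11312805-11449287 on the plus strand (Col4a2), chr15:55307750-55520803 on the plus strand (Col14a1), chr3:130131501-130599877 on the plus strand (Col25a1), chr4:121039385-121055322 on the plus strand (Col9a2) and chr6:7997808-8192617 on the minus strand (Col28a1). Across all 21 libraries the collagens with the highest level per length were Col9a1 with a mean of 80.5, Col2a1 with 79.0 and Col9a3 with 71.3 CPM per kb of exon. Col1a2 followed with 32.4, Col4a2 with 29.7 and Col4a1 with 25.6 CPM per kb. Medians over libraries gave 34.1 CPM per kb for Col9a1, 39.7 for Col2a1 and 52.2 for Col9a3, all below their means. For Col4a1 the median was 26.0 and for Col4a2 30.7 CPM per kb, close to their means. Exons of other genes overlapped at most 6.07% of a member's exon length, for Col9a3, and at most 3.71% of a member's 50-base words occurred in another gene, for Col6a6.

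**Figure D1:**
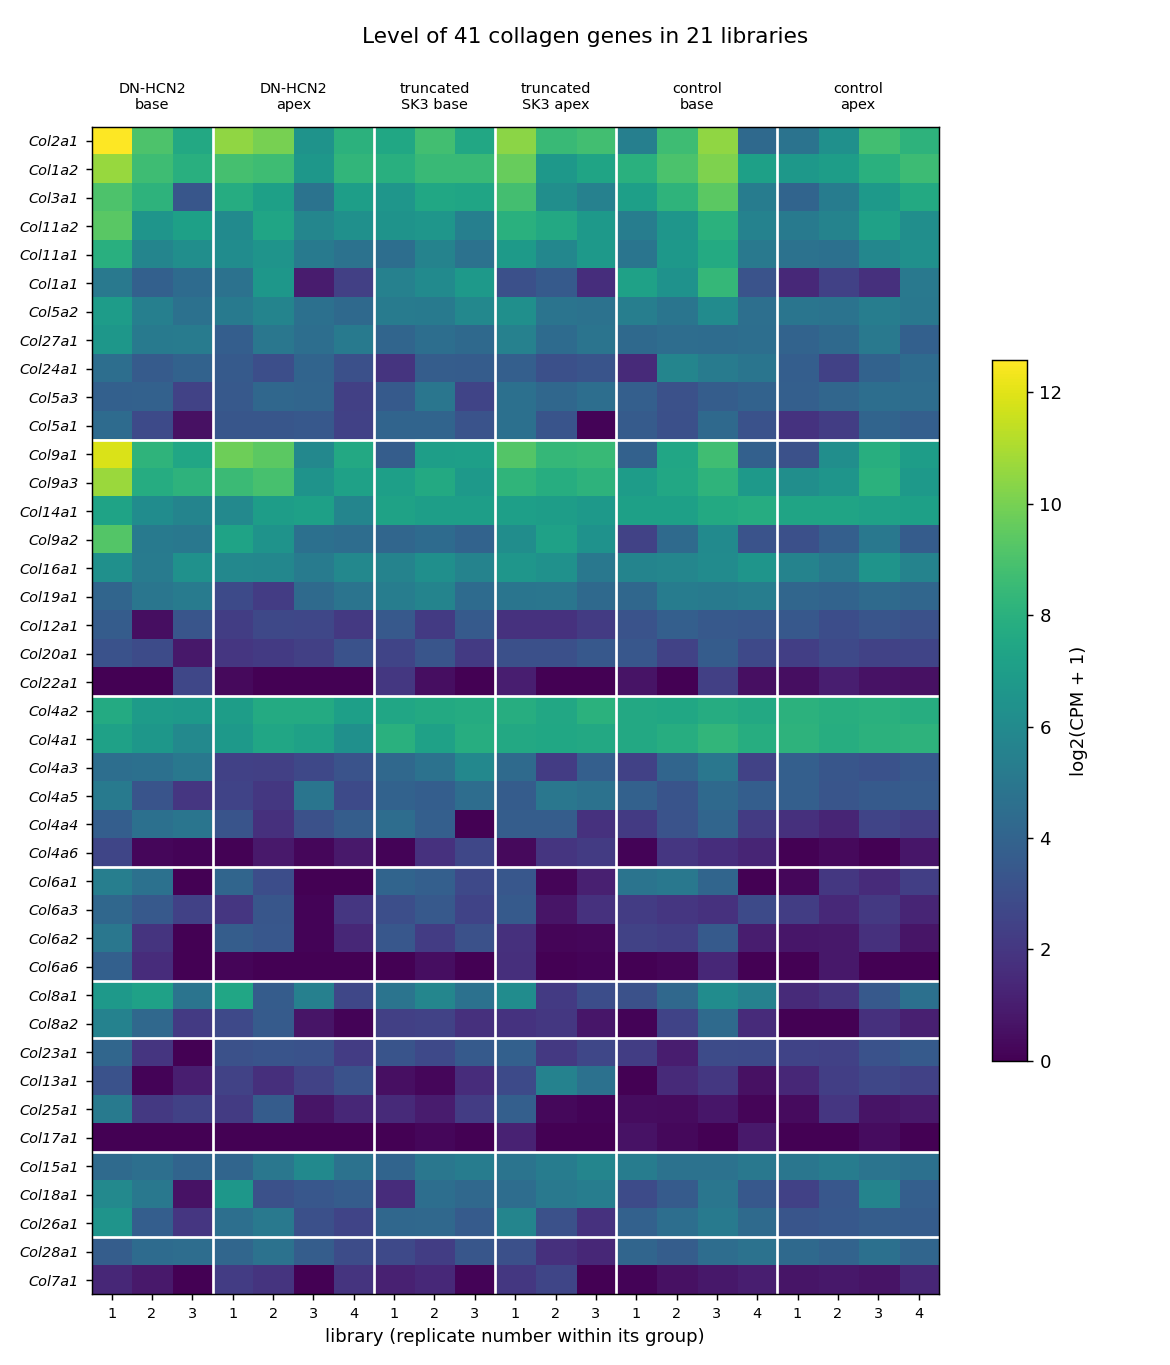
Level of each of the 41 collagen genes as log2(CPM + 1) in each of the 21 libraries, with groups separated by vertical lines and collagen classes by horizontal lines. Col2a1 ran between 18.4 and 6113 CPM while Col4a2 stayed between 112 and 267 CPM, and 18 of the 41 genes were highest in DN-HCN2 base replicate 1. The like count over all genes was not made.

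The collagen genes fell into even and uneven ones. Col4a2, Col16a1, Col15a1, Col14a1 and Col4a1 had standard deviations of log2(CPM + 1) of 0.35, 0.49, 0.50, 0.58 and 0.63 over the libraries. Col9a1, Col1a1 and Col2a1 were the most uneven, with standard deviations of 2.21, 2.13 and 2.03. A single library, DN-HCN2 base replicate 1, held the highest value of 18 of the 41 genes, and the next, control base replicate 3, that of 4. All 4 type VI genes, 6 of 11 fibrillar genes and 3 of 9 FACIT genes were highest in DN-HCN2 base replicate 1. How many of all genes were highest in it was not counted, so this is not shown to be particular to collagens. Summed over members, collagens had 16567 CPM and 1.75% of all counts in that library.

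Col2a1, the main fibrillar chain of cartilage, had 6113, 531 and 192 CPM in DN-HCN2 base and 1449, 1036, 87.7 and 267 CPM in DN-HCN2 apex libraries. It had 177, 432 and 182 CPM in truncated SK3 base and 1333, 367 and 436 CPM in truncated SK3 apex libraries. It had 41.8, 409, 1431 and 18.4 CPM in control base and 26.6, 77.5, 439 and 281 CPM in control apex libraries. Values above 1000 CPM stood in 1 or 2 libraries of 4 of the 6 groups, and every group overlapped the others. Col9a1, which encodes a chain of the FACIT collagen on type II fibrils, ran between 170 and 3688 CPM in DN-HCN2 base, 57.1 and 891 CPM in DN-HCN2 apex, 12.1 and 135 CPM in truncated SK3 base and 326 and 591 CPM in truncated SK3 apex libraries. Control libraries had 13.5 to 420 CPM of it in the base and 7.74 to 237 CPM in the apex. Its partner Col9a3 ran between 86.3 and 1665 CPM in DN-HCN2, 111 and 302 CPM in truncated SK3 and 73.5 and 294 CPM in control libraries.

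Col11a1 and Col11a2, chains of the type XI collagen that sets the width of type II fibrils, were also highest in 1 library. Col11a1 had 246 CPM and Col11a2 had 656 CPM in DN-HCN2 base replicate 1. In the other DN-HCN2 libraries Col11a1 had 25.8 to 90.3 CPM, against 24.2 to 202 CPM in control libraries. Col11a2 had 54.4 to 167 CPM there, against 35.7 to 261 CPM in control libraries. In truncated SK3 libraries they had 22.4 to 115 and 42.6 to 253 CPM.

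Col1a2 and Col1a1 encode the chains of type I collagen, the main fibre of connective tissue, and Col3a1 that of type III. Col1a2 had 99.2 to 1580 CPM in DN-HCN2, 103 to 804 CPM in truncated SK3 and 105 to 1118 CPM in control libraries. Col3a1 had 9.45 to 527 CPM in DN-HCN2, 44.5 to 447 CPM in truncated SK3 and 15.3 to 690 CPM in control libraries. Both overlapped across all 3 conditions. Col5a2, a chain of the type V collagen that nucleates type I fibrils, stayed between 18.5 and 123 CPM in DN-HCN2, 25.9 and 75.6 CPM in truncated SK3 and 23.5 and 66.4 CPM in control libraries.

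Markers of other cochlear cells also differed between libraries. The 4 otic fibrocyte and mesenchyme markers summed to 4694 CPM in DN-HCN2 base replicate 1, 1504 CPM in DN-HCN2 apex replicate 4, 1500 CPM in truncated SK3 apex replicate 1 and at most 216 CPM in the other 18 libraries. They did not follow Col2a1 throughout: it had 267 CPM in DN-HCN2 apex replicate 4, while DN-HCN2 apex replicates 1 and 2 and control base replicate 3, each above 1000 CPM of Col2a1, had 42.2, 169 and 136 CPM of these markers. Otor, which makes up most of this sum, had 4220 CPM in DN-HCN2 base replicate 1, while Tbx18 ran between 0.168 and 211 CPM over the libraries. The 12 fibroblast markers summed to 470 to 1633 CPM in DN-HCN2 base, 359 to 1954 CPM in DN-HCN2 apex, 390 to 1118 CPM in truncated SK3 base, 535 to 996 CPM in truncated SK3 apex, 323 to 1611 CPM in control base and 285 to 720 CPM in control apex libraries. Dcn, a proteoglycan of fibroblasts, reached 1173 CPM in control base replicate 3, and Dpt had at most 1.55 CPM. The 8 cartilage and bone markers summed to 1.93 to 545 CPM, with at most 21.8 CPM in DN-HCN2 apex libraries, and the 9 supporting cell and otic epithelium markers to 123 to 10023 CPM. The 8 endothelial markers summed to 0.275 to 220 CPM, with Pecam1 at most 11.2 CPM. Their part in the collagen levels was not tested, and in pools like these fewer cells of a type and less RNA per cell cannot be told apart.

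**Figure D2:**
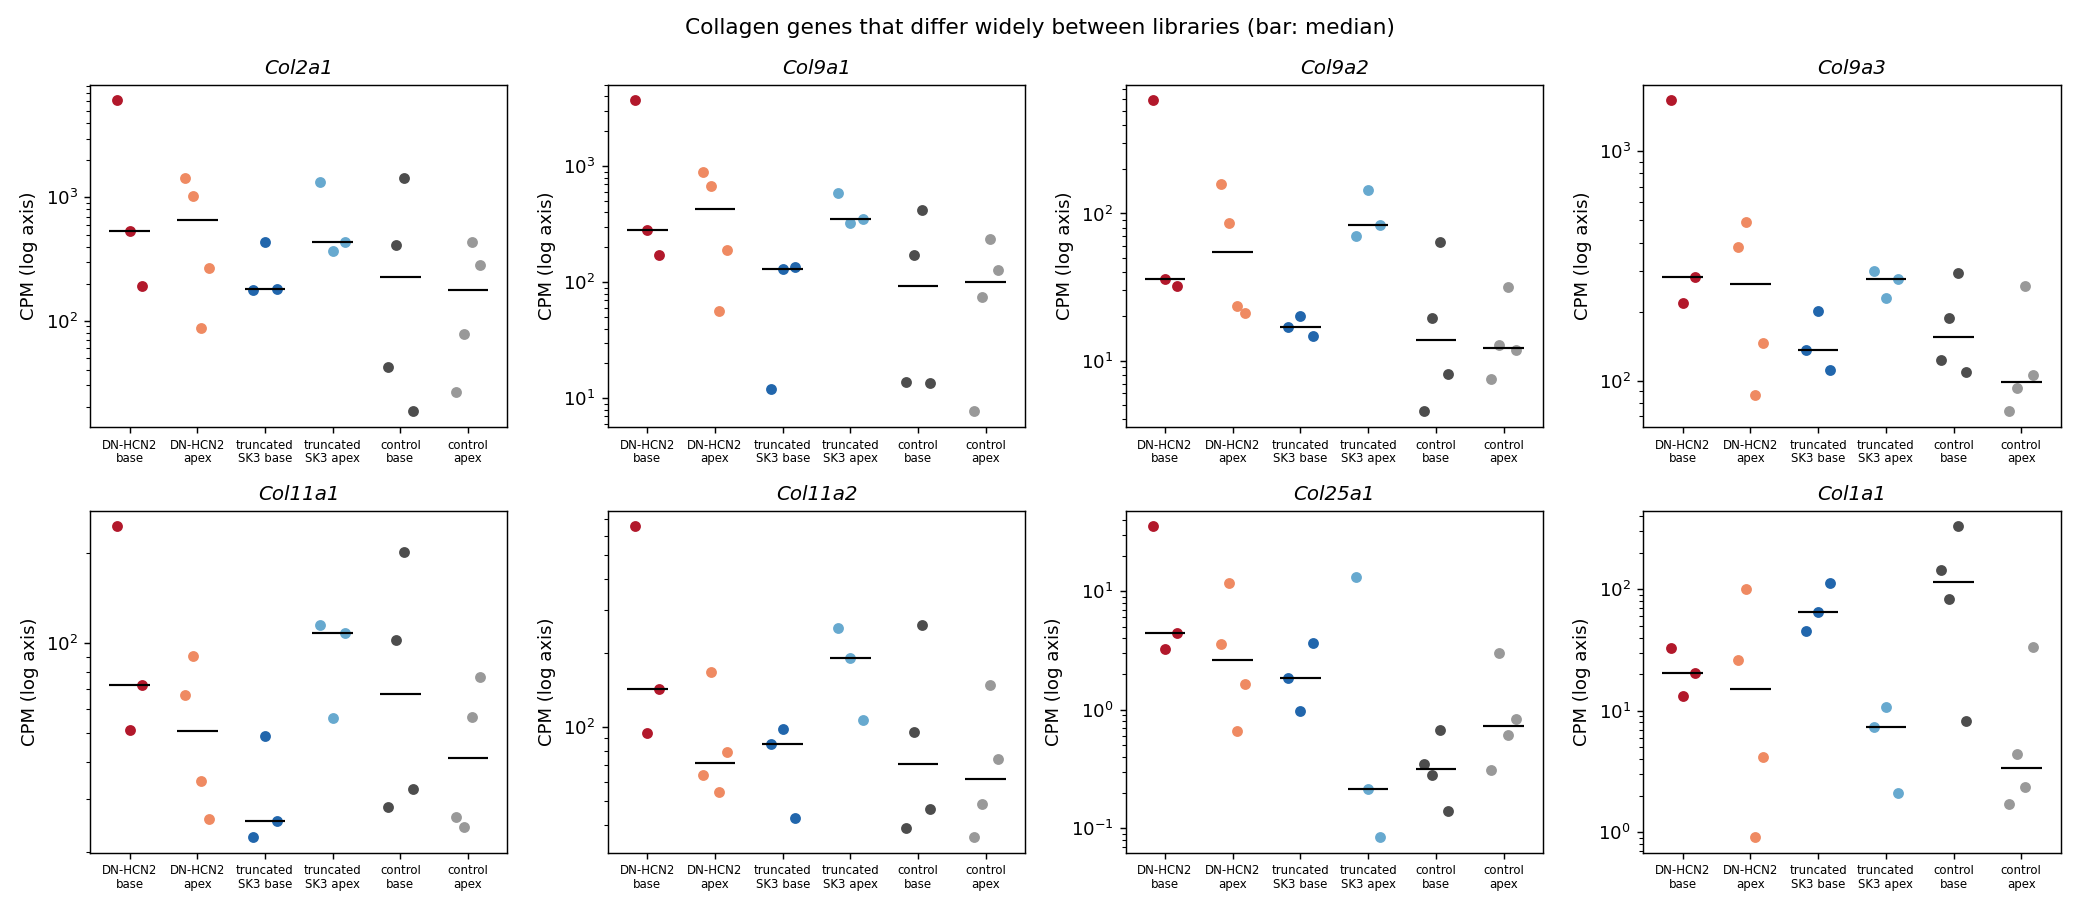
Level in CPM, on log axes that differ between panels, of 8 collagen genes with uneven levels, with each point a library and bars at group medians. The point of DN-HCN2 base replicate 1 is the highest in the panels of Col2a1 (6113 CPM), Col9a2 (586 CPM) and Col25a1 (35.3 CPM), and control base replicate 3 is the highest in that of Col1a1 (330 CPM).

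Against control over both regions, DN-HCN2 libraries had less of the basement membrane collagens Col4a1 and Col4a2 and of Col14a1, and more Col25a1 and Col9a2. Of 40 tested collagen genes, 3 fell and 2 rose in edgeR at an adjusted p under 0.05, which is 12.5%, beside 6.05% of all 14968 tested genes (3.61% lower and 2.45% higher). Unadjusted p was under 0.05 for 10 of the 40, beside 3288 of all 14968 genes. The median log2 fold change of the 40 genes was 0.45, against 0.03 over all genes. The 11 fibrillar, 2 short-chain and 4 type VI genes had no call. Col17a1 had too few counts to be tested.

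Col4a1, the common chain of type IV collagen, had 144, 98.5 and 58.7 CPM in DN-HCN2 base and 109, 174, 148 and 79.2 CPM in DN-HCN2 apex libraries. Control libraries had 193, 228, 307 and 228 CPM in the base and 277, 231, 266 and 280 CPM in the apex. All 7 DN-HCN2 libraries lay below all 8 control libraries. The log2 fold change was -1.15 (SE 0.185, adjusted p = 0.00097 in edgeR). The call held when any library was left out (-1.33 to -1.01). Without the 2 libraries highest in macrophage markers, which left replicate 1 alone in DN-HCN2 base, the log2 fold change was -0.88.

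Col4a2, its partner chain and head-to-head neighbour, had 206, 119 and 112 CPM in DN-HCN2 base and 128, 208, 203 and 138 CPM in DN-HCN2 apex libraries, against 193, 177, 222 and 192 CPM in control base and 267, 234, 250 and 229 CPM in control apex libraries. In the apex the groups did not overlap, and in the base replicate 1 of DN-HCN2 lay among the controls. In edgeR the log2 fold change came to -0.48 (SE 0.141, adjusted p = 0.0475 in edgeR). The remaining chains, Col4a3, Col4a4, Col4a5 and Col4a6, had no call, and each stayed at or below 58.5 CPM. Col14a1, a FACIT collagen that binds type I fibrils, had 156, 67.6 and 50.3 CPM in DN-HCN2 base and 59.3, 129, 141 and 52.5 CPM in DN-HCN2 apex libraries, against 143, 143, 196 and 217 CPM in control base and 163, 164, 144 and 141 CPM in control apex libraries. The 4 lowest DN-HCN2 values, 50.3 to 67.6 CPM, lay far below all controls, and the groups overlapped through DN-HCN2 base replicate 1. Its log2 fold change was -0.81 (SE 0.229, adjusted p = 0.0417 in edgeR).

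The calls of Col4a2 and Col14a1 held in only 3 of 15 fits that left out a library, those without DN-HCN2 base replicate 1, DN-HCN2 apex replicate 2 or DN-HCN2 apex replicate 3. Adjusted p rose to 0.132 for Col4a2 and 0.108 for Col14a1. Without the 2 libraries highest in macrophage markers, DN-HCN2 base replicates 2 and 3, the log2 fold changes were -0.22 and -0.41. Replicate 1 alone then stood for DN-HCN2 base.

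**Figure D3:**
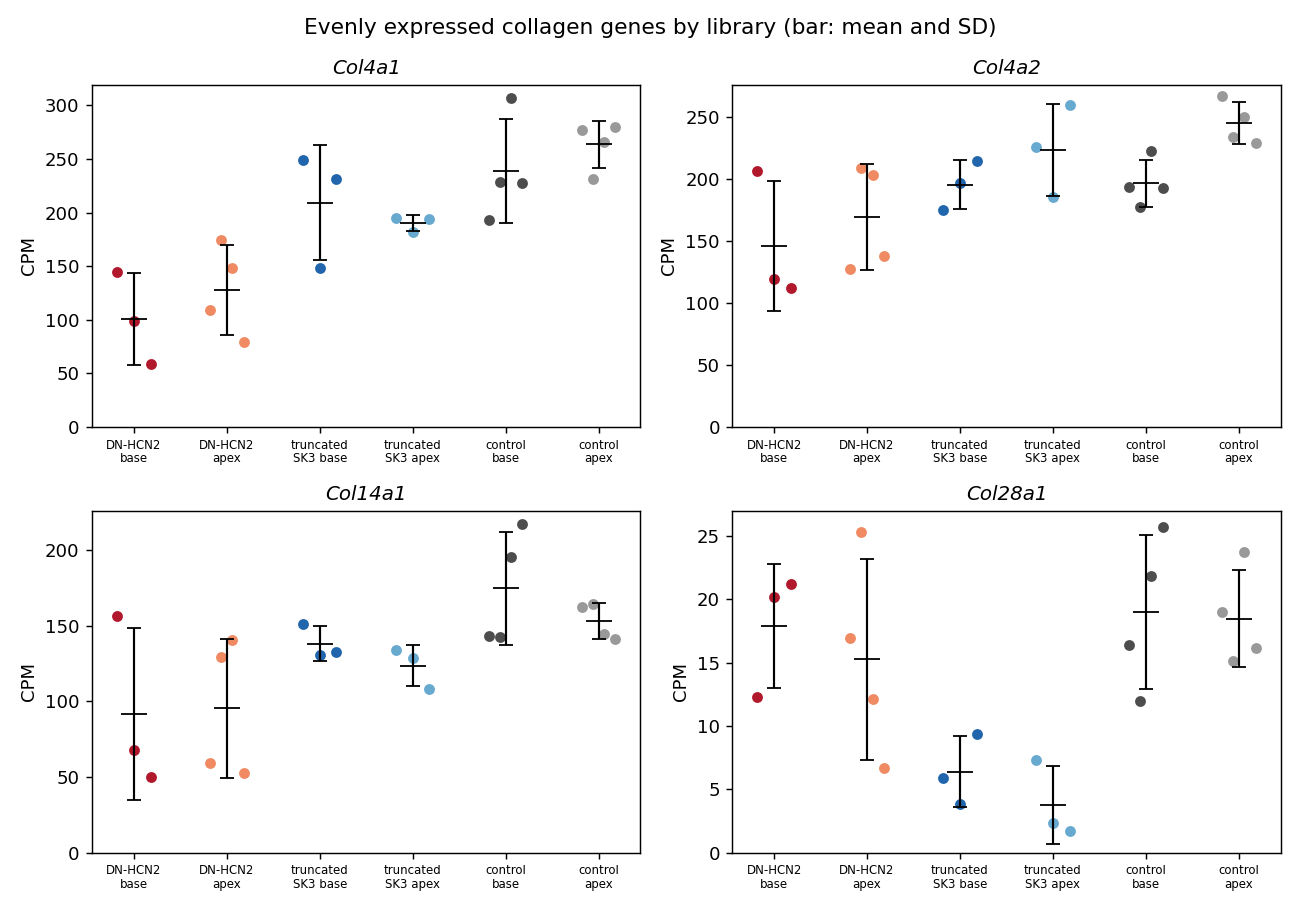
Level in CPM of Col4a1, Col4a2, Col14a1 and Col28a1 by library, with each point a library and bars at the group mean and SD. Col4a1 averaged 100 ± 42.7 CPM in DN-HCN2 base and 128 ± 41.9 CPM in DN-HCN2 apex against 239 ± 48.2 and 264 ± 22.2 CPM in control base and apex, and Col28a1 was lowest in the truncated SK3 groups.

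Col25a1, a transmembrane collagen of neurons, had 35.3, 3.24 and 4.40 CPM in DN-HCN2 base and 3.59, 11.8, 0.663 and 1.64 CPM in DN-HCN2 apex libraries. Control libraries had 0.349, 0.283, 0.678 and 0.141 CPM in the base and 0.310, 3.01, 0.610 and 0.834 CPM in the apex. The groups were apart in the base and overlapped in the apex. Control values rested on 2 to 39 counts, and DN-HCN2 values on 8 to 528. On the log2 scale the difference was 3.58 (SE 0.940, adjusted p = 0.0292 in edgeR). The call ended without the 2 libraries highest in fibroblast markers, at 2.67 (edgeR adjusted p = 0.119). It also ended with the replicate number added to the fit, at 2.97 (edgeR adjusted p = 0.0985). Leaving out DN-HCN2 base replicate 1, DN-HCN2 apex replicate 2, control apex replicate 1, 3 or 4, or control base replicate 1, 2 or 4 ended the call, with log2 fold changes of 2.62 to 4.07 over all 15 such fits and adjusted p up to 0.0971.

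Col9a2, another chain of type IX collagen, had 586, 35.7 and 32.2 CPM in DN-HCN2 base and 159, 86.1, 23.7 and 21.2 CPM in DN-HCN2 apex libraries. Control libraries had 4.53, 19.4, 64.5 and 8.16 CPM in the base and 7.51, 12.8, 31.7 and 11.7 CPM in the apex. Control base replicate 3 and control apex replicate 3 lay among the DN-HCN2 values. The log2 fold change was 2.68 (SE 0.722, adjusted p = 0.0396 in edgeR). Without DN-HCN2 base replicate 1 it was 1.33 (edgeR adjusted p = 0.169), and the call held in 6 of 15 fits that left out a library, those without DN-HCN2 apex replicate 3 or 4, DN-HCN2 base replicate 2 or 3, control apex replicate 3 or control base replicate 3. Without the 2 libraries highest in fibroblast markers it was 0.97 (edgeR adjusted p = 0.318). Without the 3 libraries over 1000 CPM of otic fibrocyte markers it was 1.47 (edgeR adjusted p = 0.133), and the part of those cells was not tested. Col27a1, a fibrillar collagen of cartilage, and Col9a3 missed the threshold with log2 fold changes of 0.89 (SE 0.273, adjusted p = 0.0547 in edgeR) and 1.54 (SE 0.469, adjusted p = 0.0601 in edgeR).

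Laminins and nidogens, the partners of type IV collagen in basement membranes, were lower in part. Of 16 genes of this list, 4 fell, beside 3.61% of all genes, and none rose, with a median log2 fold change of -0.43 against 0.03 over all genes. Lama1, a laminin alpha chain, had 29.0, 23.3 and 48.2 CPM in DN-HCN2 base and 27.0, 84.9, 92.2 and 58.0 CPM in DN-HCN2 apex libraries, against 132, 132, 134 and 136 CPM in control base and 96.0, 115, 117 and 99.0 CPM in control apex libraries. All DN-HCN2 values lay below all control values, and the log2 fold change was -1.35 (SE 0.204, adjusted p = 0.000531 in edgeR). Lamb1 and Lamc1, the beta and gamma chains of the same trimers, had log2 fold changes of -0.79 (SE 0.160, adjusted p = 0.00616 in edgeR) and -0.77 (SE 0.160, adjusted p = 0.00737 in edgeR). Nid1, which links laminin to type IV collagen, had -0.80 (SE 0.166, adjusted p = 0.00745 in edgeR). These 4 calls held when any library was left out. Leaving out the 2 libraries highest in macrophage markers left replicate 1 alone in DN-HCN2 base. The log2 fold changes were then -0.76 for Lamb1, -0.63 for Lamc1 and -0.63 for Nid1.

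Glial and macrophage markers also differed between libraries. Among the 9 Schwann and satellite glia markers, Erbb3, the neuregulin receptor, fell with a log2 fold change of -1.94 (SE 0.489, adjusted p = 0.0231 in edgeR). The list summed to 9229 to 13736 CPM in DN-HCN2 base and 10022 to 17388 CPM in DN-HCN2 apex libraries, against 13963 to 27281 CPM in control base and 11476 to 18369 CPM in control apex libraries. In the apex these sums overlapped, and they were not tested. Macrophage markers summed to 1187 and 795 CPM in DN-HCN2 base replicates 2 and 3 and to at most 348 CPM in the other libraries. The part of these cells in the fall of Col4a1 and the laminins was not tested.

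Among genes that break down or shape collagen, 2 rose. Mmp14, a membrane-bound protease that cuts fibrillar collagen, had 250, 297 and 215 CPM in DN-HCN2 base and 241, 135, 56.4 and 99.7 CPM in DN-HCN2 apex libraries, against 78.6, 72.1, 65.9 and 46.1 CPM in control base and 65.9, 104, 82.3 and 62.3 CPM in control apex libraries. In the base the groups were apart and in the apex they overlapped. Its log2 fold change was 1.36 (SE 0.252, adjusted p = 0.00354 in edgeR). Timp2, an inhibitor that also helps Mmp14 activate another protease, rose with 1.18 (SE 0.216, adjusted p = 0.00307 in edgeR). They were 2 of 11 tested genes of collagen breakdown, beside 2.45% of all genes higher, and none of the 11 fell.

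Of 31 tested genes of collagen biosynthesis and cross-linking, 3 rose and 1 fell, beside 2.45% of all genes higher and 3.61% lower. P3h3 and P3h4, members of a complex that hydroxylates lysines of collagen, had log2 fold changes of 1.64 (SE 0.349, adjusted p = 0.00876 in edgeR) and 1.16 (SE 0.283, adjusted p = 0.0196 in edgeR). P4ha2, a catalytic subunit of prolyl hydroxylase, had 2.30 (SE 0.671, adjusted p = 0.0467 in edgeR), and this call held in only 4 of 15 fits that left out a library, those without DN-HCN2 apex replicate 2, 3 or 4 or control base replicate 4. P3h4 lost its call without DN-HCN2 base replicate 1, at an adjusted p of 0.0518, and without the 2 libraries highest in fibroblast markers, at a log2 fold change of 0.75 (edgeR adjusted p = 0.105). Without the 3 libraries over 1000 CPM of otic fibrocyte markers both calls ended, at 1.12 for P3h3 (edgeR adjusted p = 0.0720) and 1.00 for P3h4 (0.0619). Adamts3, a protease that trims procollagen, fell with -1.18 (SE 0.285, adjusted p = 0.0188 in edgeR). Its value was -1.12 without the 2 libraries highest in macrophage markers, where replicate 1 alone stood for DN-HCN2 base. None of the 11 collagen receptors passed the test.

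**Figure D4:**
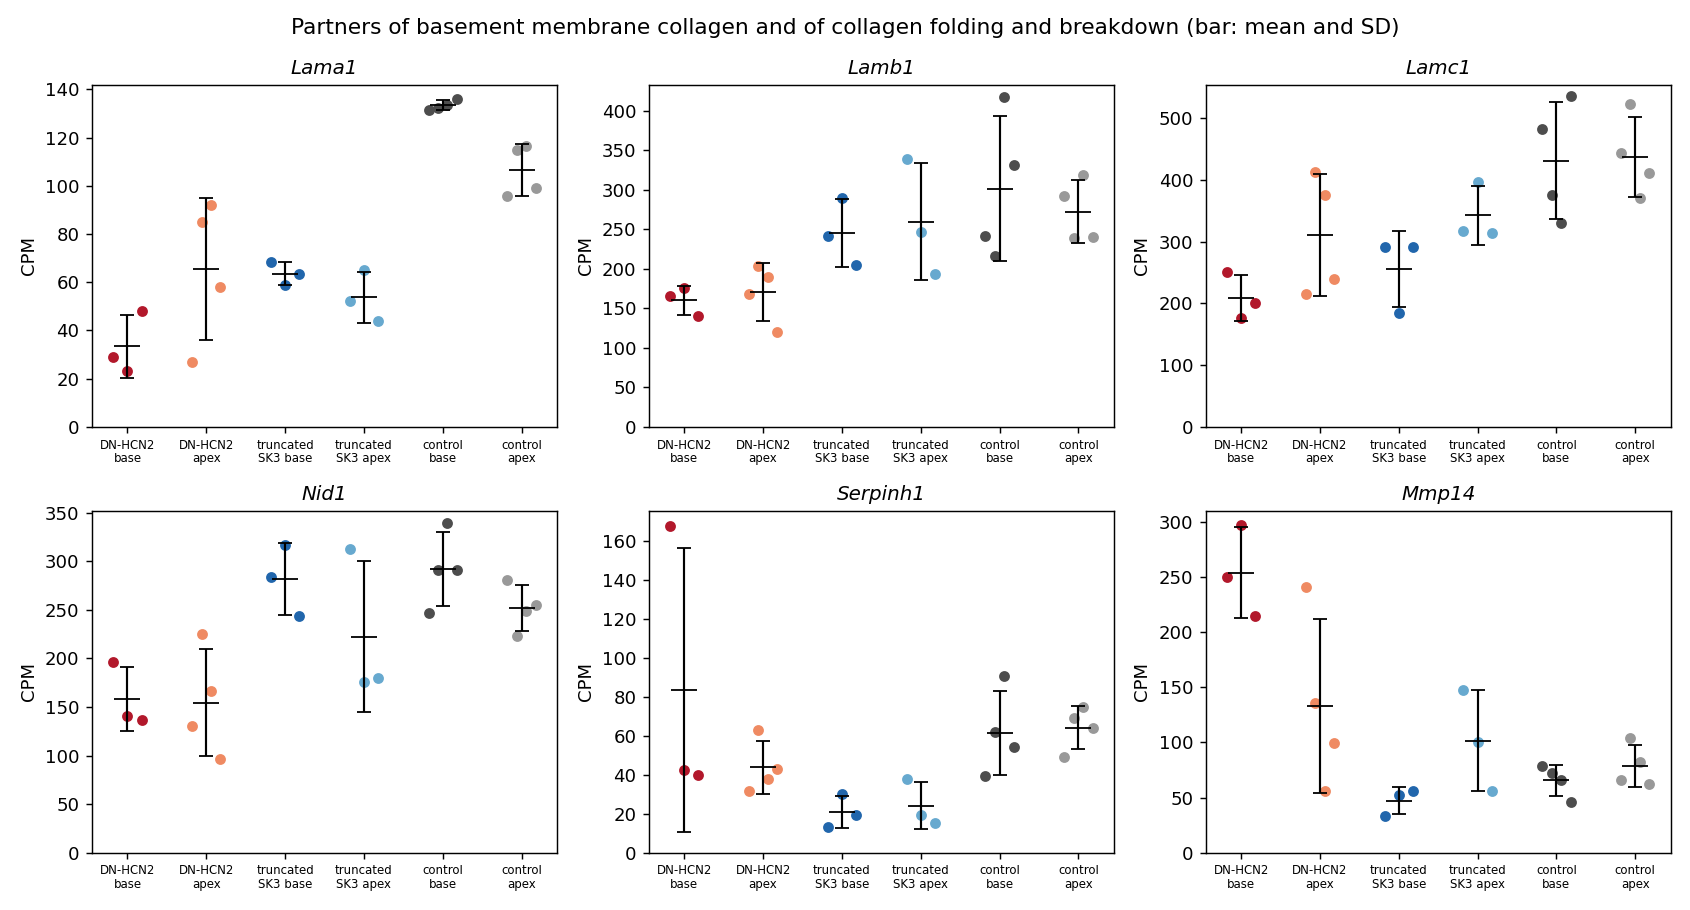
Level in CPM of the laminin genes Lama1, Lamb1 and Lamc1, of Nid1, of the procollagen chaperone Serpinh1 and of the protease Mmp14 by library, with each point a library and bars at the group mean and SD. Lama1 had 23.3 to 92.2 CPM in DN-HCN2 and 44.1 to 68.4 CPM in truncated SK3 libraries, below the 96.0 to 136 CPM of the control libraries.

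Within regions, fewer genes passed. In the base, 1 of 40 collagen genes was called, beside 2.14% of all genes (1.30% lower), and 7 had an unadjusted p under 0.05, beside 18.5% of all genes. It was Col4a1, with a log2 fold change of -1.25 (SE 0.275, adjusted p = 0.0223 in edgeR). Its call ended without DN-HCN2 base replicate 2 or 3 or control base replicate 3 or 4, at adjusted p up to 0.0927. Without both DN-HCN2 base replicates 2 and 3, the libraries highest in macrophage markers, it was -0.70. Replicate 1 alone then stood for DN-HCN2 base, so the part of macrophage content cannot be read from this value. Col25a1 (5.27, SE 1.45, edgeR adjusted p = 0.0584) and Col27a1 (1.45, SE 0.399, edgeR adjusted p = 0.0596) followed. In the apex, edgeR called none of the 40, beside 0.200% of all genes, with 5 at an unadjusted p under 0.05 (11.9% of all genes), and DESeq2 called 1. The 3 with the smallest p there were Col4a1 (-1.05, edgeR adjusted p = 0.0989), Col4a2 (-0.53, 0.274) and Col14a1 (-0.68, 0.394).

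In truncated SK3 libraries, Col28a1 fell against control over both regions. It was the only collagen called, 1 of 40, beside 0.735% of all tested genes (0.408% lower), and 3 had an unadjusted p under 0.05, beside 10.3% of all genes. Col28a1 encodes a collagen found in mice around peripheral glia. It had 5.91, 3.87 and 9.38 CPM in truncated SK3 base and 7.31, 2.37 and 1.68 CPM in truncated SK3 apex libraries. Control libraries had 16.4, 11.9, 21.8 and 25.7 CPM in the base and 19.0, 15.1, 23.7 and 16.1 CPM in the apex. All 6 truncated SK3 libraries lay below all 8 control libraries. In edgeR the log2 fold change came to -1.93 (SE 0.366, adjusted p = 0.0103 in edgeR), and the call held whichever library was left out (-2.39 to -1.75).

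In DN-HCN2 libraries Col28a1 had 12.2, 20.2 and 21.2 CPM in the base and 17.0, 25.3, 12.1 and 6.65 CPM in the apex, which overlapped the controls, and whether the 2 constructs differ in their effect on it was not tested. Schwann and satellite glia markers summed to 18202 to 43768 CPM in truncated SK3 base and 11964 to 20398 CPM in truncated SK3 apex libraries, and none of the 9 was called against control. Sox10, the defining factor of the lineage, had 80.7 to 154 CPM in truncated SK3 and 74.4 to 123 CPM in control libraries. Erbb3, of the same list, had 4.74 to 33.4 CPM in truncated SK3 and 11.9 to 43.5 CPM in control libraries. The part of glia in the fall of Col28a1 was not tested. By region, Col28a1 had log2 fold changes of -2.29 (edgeR adjusted p = 0.0824) in the apex and -1.57 (0.573) in the base. No collagen was called in either region, beside 0.254% and 0.147% of all genes, with 4 and 3 at an unadjusted p under 0.05 (8.51% and 5.51% of all genes), and DESeq2 called 1 in the apex and 0 in the base. Col9a2 (2.64, edgeR adjusted p = 0.485) and Col13a1 (2.73, edgeR adjusted p = 0.503), a transmembrane collagen of the neuromuscular junction, were next in the apex. Col24a1 (-1.77, edgeR adjusted p = 0.799) and Col4a3 (1.29, edgeR adjusted p = 0.876) were next in the base.

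The other 39 tested collagens did not pass the test with truncated SK3. Over both regions Col25a1 had a log2 fold change of 2.22 (SE 0.924, adjusted p = 0.390 in edgeR), which was -0.20 without the libraries rich in otic fibrocyte markers. It had 1.83, 0.968 and 3.67 CPM in truncated SK3 base and 13.1, 0.215 and 0.0841 CPM in truncated SK3 apex libraries. Col24a1, a fibrillar collagen of bone and cornea, had -1.09 (SE 0.497, adjusted p = 0.446 in edgeR). Col4a1 had 249, 148 and 231 CPM in truncated SK3 base and 195, 182 and 194 CPM in truncated SK3 apex libraries, with a log2 fold change of -0.33 (SE 0.189, adjusted p = 0.582 in edgeR). The median of the 40 genes was 0.25, against 0.01 over all genes.

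Serpinh1, the chaperone that folds procollagen, also fell with truncated SK3. It had 13.3, 29.9 and 19.3 CPM in truncated SK3 base and 37.7, 19.5 and 15.1 CPM in truncated SK3 apex libraries, against 39.2, 61.8, 90.5 and 54.3 CPM in control base and 49.1, 69.1, 74.8 and 63.8 CPM in control apex libraries. All 6 lay below all 8. On the log2 scale the difference was -1.49 (SE 0.324, adjusted p = 0.0301 in edgeR), though the call held in only 5 of 14 fits that left out a library, at adjusted p up to 0.109. The fits in which it held were those without truncated SK3 apex replicate 1, truncated SK3 base replicate 2, control apex replicate 1 or control base replicate 1 or 4. Serpinh1 was the only call among 31 tested genes of collagen biosynthesis and cross-linking, beside 0.408% of all genes lower. Lama1 was the only call among the 16 laminins and other basement membrane genes, with 68.4, 58.7 and 63.6 CPM in truncated SK3 base and 52.2, 65.0 and 44.1 CPM in truncated SK3 apex libraries and a log2 fold change of -1.03 (SE 0.211, adjusted p = 0.0185 in edgeR). That call ended without truncated SK3 apex replicate 3 or truncated SK3 base replicate 3, at adjusted p up to 0.0693. None of 11 collagen receptors and none of 11 breakdown genes was called.

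**Figure D5:**
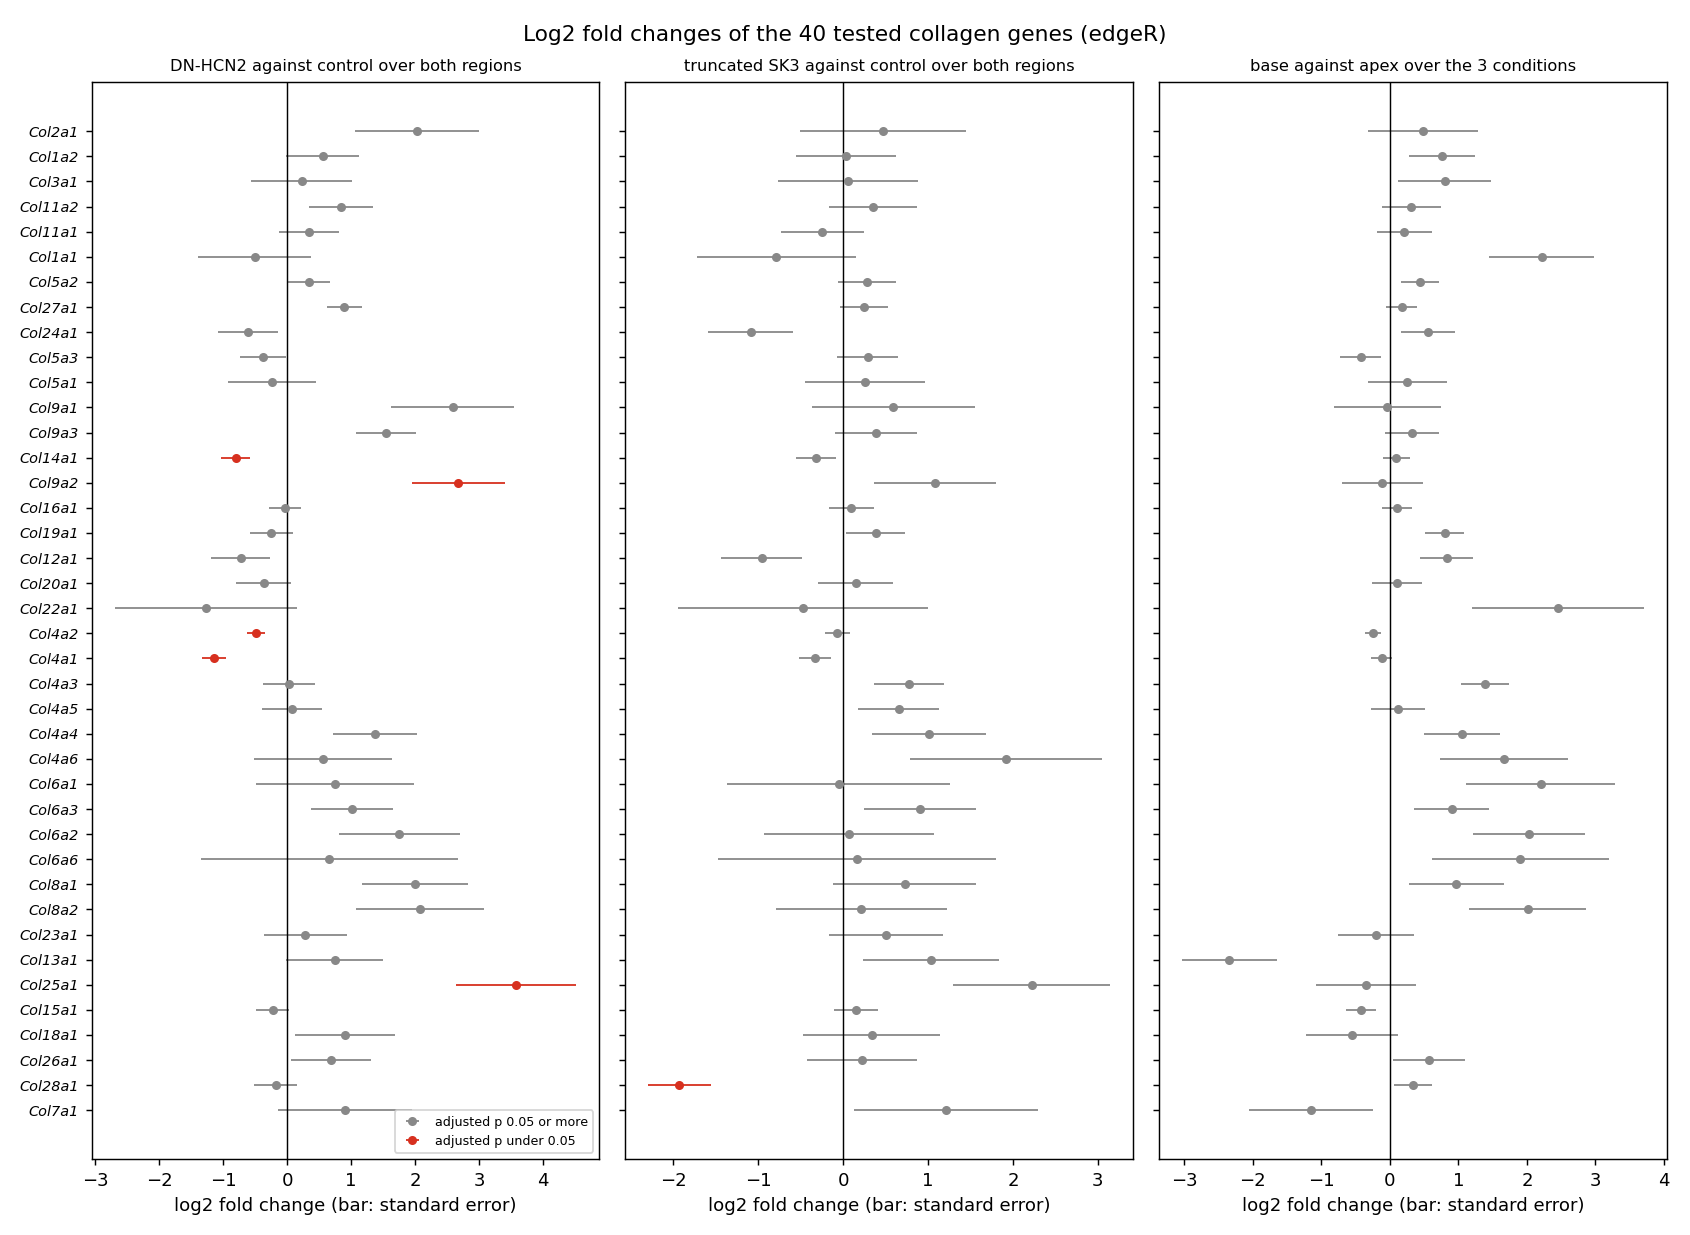
Log2 fold change and standard error of the 40 tested collagen genes for DN-HCN2 against control, truncated SK3 against control and base against apex, with genes at an adjusted p under 0.05 in red. Col4a1 (-1.15) and Col28a1 (-1.93) carry the narrow intervals far from 0, while the uneven genes such as Col9a1 (2.59, SE 0.960 for DN-HCN2) have wide ones.

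Base against apex over the 3 conditions gave no collagen call in edgeR, beside 1.16% of all genes, with 7 at an unadjusted p under 0.05 (14.4% of all genes), and DESeq2 called 3. The 3 genes with the smallest p were Col4a3, Col13a1 and Col19a1. Col4a3, a chain of the type IV network that is lost in Alport syndrome, had 22, 24.2 and 31.9 CPM in DN-HCN2 base against 4.31, 4.22, 5.72 and 8.36 CPM in DN-HCN2 apex libraries, and 18, 25.6 and 58.5 CPM in truncated SK3 base against 19.2, 3.73 and 13.1 CPM in truncated SK3 apex libraries. In control it had 4.36, 16.1, 30.4 and 4.57 CPM in the base against 13, 9.34, 7.86 and 10.2 CPM in the apex. Base and apex were apart in DN-HCN2 and overlapped in truncated SK3 and in control. The log2 fold change was 1.39 (SE 0.345, adjusted p = 0.0542 in edgeR), with adjusted p between 0.0373 and 0.124 as each library was left out. Col4a4, its head-to-head neighbour with starts 71 bases apart, had 1.06 (SE 0.553, adjusted p = 0.396 in edgeR).

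Col13a1 had a log2 fold change of -2.34 (SE 0.689, adjusted p = 0.109 in edgeR) between base and apex, and its 2 highest values, 46.0 and 24.8 CPM, were in truncated SK3 apex replicates 2 and 3. Col19a1, a FACIT collagen made by some brain interneurons in mice, had 0.80 (SE 0.286, adjusted p = 0.189 in edgeR). Col1a1 had 2.21 (SE 0.772, adjusted p = 0.192 in edgeR), with 144, 83.5, 330 and 8.23 CPM in control base against 1.70, 4.40, 2.37 and 33.5 CPM in control apex libraries. In truncated SK3 it had 45.7, 64.6 and 112 CPM in the base against 7.31, 10.7 and 2.10 CPM in the apex, and in DN-HCN2 33.1, 13.3 and 20.4 CPM in the base against 26.1, 101, 0.912 and 4.18 CPM in the apex. The fibroblast marker Mfap5, which averaged only 1.32 CPM over the libraries, rose in the base with 4.63 (edgeR adjusted p = 0.0441). Tectb and Otog, of otic epithelium, fell with -5.14 and -5.04 (edgeR adjusted p of 0.0264 and 0.00420). In the same list, without a call, Epyc had -3.33 and Cldn11 had 3.87 (edgeR adjusted p of 0.136 and 0.0898). The part of these markers was not tested.

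The effect of DN-HCN2 was not shown to differ between base and apex for any collagen. None of the 40 was called, beside 0.00668% of all genes, with 2 at an unadjusted p under 0.05 (6.85% of all genes). For truncated SK3 none of the 40 was called, beside 0% of all genes, with 1 at an unadjusted p under 0.05 (3.64% of all genes). DESeq2 called 0 collagens in either. The smallest p belonged to Col1a1 for DN-HCN2 (-4.31, edgeR adjusted p = 0.689) and to Col11a1 for truncated SK3 (-2.52, edgeR adjusted p = 1.00).

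The remaining even collagens gave no call in edgeR in any comparison. Col16a1, a FACIT collagen of many connective tissues, ran between 36.9 and 80.9 CPM in DN-HCN2, 32.2 and 98 CPM in truncated SK3 and 32.3 and 93.6 CPM in control libraries. Col15a1, a collagen of basement membrane zones, ran between 15.5 and 62.6 CPM in DN-HCN2, 15.8 and 51.6 CPM in truncated SK3 and 24.1 and 38.1 CPM in control libraries. Col8a1, a short-chain network collagen, was less even, with 5.38 to 173 CPM in DN-HCN2, 3.37 to 68.9 CPM in truncated SK3 and 1.86 to 68.2 CPM in control libraries. The type VI genes were low, with Col6a1 detected in 17 of 21 libraries and at most 40.5 CPM. Col17a1 had counts in 6 libraries, Col6a6 in 9 and Col22a1 in 12.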

How the data were processed

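Read counts per gene were used as deposited by the authors in 1 table of 21878 genes and 21 libraries. The submitters' processing notes name Trimmomatic, HISAT2, DESeq2 and the mouse builds GRCm38 and mm10, without versions, and the counting tool and its strand setting are not given in the sources used here. Columns were matched to libraries by the column names in the labels. No 2 libraries of a group agreed within counting noise (chi-square per gene at least 24.88). Counts were tested with edgeR 4.0.16 in R 4.3.3: TMM scaling, filterByExpr by group, which kept 14968 genes and 40 of the 41 members, 1 mean per group over all 21 libraries, robust quasi-likelihood tests and Benjamini-Hochberg adjustment over all kept genes at 0.05. Comparisons over both regions average the regional contrasts, and both constructs share the control libraries. DESeq2 1.42.0 served as an alternative. On simulated counts for DN-HCN2 against control, 6.06% of genes changed 1.5-fold, 44.0% of those changed 2-fold and 67.8% of those changed 4-fold were recovered, with 3 false calls. The simulation drew each gene independently around a profile common to all libraries. Shifts in cell content that move many genes together were not in it, so recovery and false calls may differ in the real libraries. Members and gene lists were chosen with earlier results of these data known. Full values are given for the 16 members highest by mean CPM, by library or as ranges, and for each called member. Fold changes are given for called members, or for the 3 with the smallest p where fewer were called. From other lists, called genes are named. The otic fibrocyte, fibroblast and macrophage library exclusions were chosen after seeing the data. Gene models came from GENCODE M21 on GRCm38. A result for 1 gene of the marker lists is not reported here.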

Additional observations from a re-analysis of the deposited data

Results flagged for a closer look

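In 1 library of a group of 4 the level stood far from the other 3 for 2 collagen genes. Col16a1 had 37.0 CPM in DN-HCN2 apex replicate 3, below the 56.0 to 57.6 CPM of the other 3 DN-HCN2 apex libraries. Col1a1 had 33.5 CPM in control apex replicate 4, above the 1.70 to 4.40 CPM of the other 3 control apex libraries. A gap of this size was looked for in 54 sets of 4 libraries, and chance gives it in about 5% of such sets.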

How the results depend on the processing

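Over both regions, the calls of Col4a1 in DN-HCN2 and Col28a1 in truncated SK3 held under all 9 alternatives and in every fit that left out a library. Collagen genes called for DN-HCN2 over both regions numbered 5, and 4 with RLE size factors, 3 without a low-count filter, 8 with DESeq2, 2 with only the compared groups fitted, 3 without DN-HCN2 apex replicate 1 (the library highest in fibroblast and supporting cell markers), 3 without the 2 libraries highest in fibroblast markers and 1 to 7 as each library was left out. In the base 1 was called, and 4 with DESeq2 and 2 without DN-HCN2 apex replicate 1. The number was 3 without the libraries rich in otic fibrocyte markers, 3 without those highest in fibroblast markers and 0 to 3 as each library was left out. The fits without the macrophage-rich libraries, DN-HCN2 base replicates 2 and 3, left replicate 1 alone in that group. Calls made or lost in those fits rest on 1 library there. In the apex none was called, against 1 with DESeq2 and 1 without the macrophage-rich libraries. For truncated SK3 in the apex 1 was called with DESeq2, 1 without the fibrocyte-rich libraries and 0 to 1 with libraries left out. Base against apex had 3 with DESeq2, 2 without the fibrocyte-rich libraries, 2 without the fibroblast-rich libraries and 0 to 1 with libraries left out.

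The replicate numbers did not pair the libraries: 8 of 48 same-number pairs had deviations correlated over 0.1, with a median of -0.0249, and 5 of 10 apex libraries were closest to the base library of their own number. With the replicate block, 1 collagen was called for DN-HCN2 over both regions (Col4a1, -1.19, edgeR adjusted p = 0.00316) and 602 genes in all. The block also ended the calls of Serpinh1 for truncated SK3 (-1.54, edgeR adjusted p = 0.0803) and P4ha2 for DN-HCN2 (2.20, edgeR adjusted p = 0.0924).

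Direction changed for genes without a call. Col28a1 for DN-HCN2 was 0.033 over both regions and 0.11 in the base without the fibrocyte-rich libraries, and 0.12 in the base without the fibroblast-rich ones. Col25a1 for truncated SK3 was -0.20 over both regions and -2.93 in the apex without the fibrocyte-rich libraries. Col4a2 was 0.10 for DN-HCN2 in the base without the macrophage-rich libraries, where replicate 1 alone stood for DN-HCN2 base. For truncated SK3 in the base Col4a2 was 0.000928 with RLE, 0.000927 with DESeq2 and 0.00128 with only the compared groups. Leaving out each library gave -0.20 to 2.71 for Col25a1 with truncated SK3 over both regions and -2.92 to 2.89 in the apex, -0.26 to 0.12 for Col28a1 with DN-HCN2 in the base, and -0.84 to 0.69 for Col9a2 and -0.078 to 0.066 for Col4a2 with truncated SK3 in the base. The cause was not tested.

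All genes called for DN-HCN2 over both regions numbered 906, against 1661 with DESeq2 and 475 without the macrophage-rich libraries. For truncated SK3 they numbered 110, against 320 with DESeq2, 69 with the block and 244 with only the compared groups. For DN-HCN2 in the apex 30 were called, against 232 with DESeq2, 16 without DN-HCN2 apex replicate 1 and 55 without the macrophage-rich libraries. In the base 320 were called, against 1101 with DESeq2, 141 with the block, 493 without DN-HCN2 apex replicate 1, 527 without the fibrocyte-rich, 866 without the fibroblast-rich and 103 without the macrophage-rich libraries. For truncated SK3, DESeq2 called 156 in the apex against 38, with 97 without the fibrocyte-rich libraries, and 81 in the base against 22. Base against apex had 173, against 571 with DESeq2, 80 with the block, 37 in control alone, 411 without the fibrocyte-rich, 480 without the fibroblast-rich and 41 without the macrophage-rich libraries. The difference of the DN-HCN2 effect between regions had 1 gene, against 123 with DESeq2, 9 without the fibrocyte-rich, 64 without the fibroblast-rich and 0 with the block, without DN-HCN2 apex replicate 1 or without the macrophage-rich libraries, and that of truncated SK3 had 0, against 21 with DESeq2. As each library was left out, all genes called ran between 520 and 1429 for DN-HCN2 over both regions, 16 and 86 in the apex and 107 and 569 in the base, 61 and 114 for truncated SK3 over both regions, 19 and 62 in the apex and 11 and 22 in the base, and 55 and 282 for base against apex. With 3 or 4 libraries a group, a missed threshold does not show equal levels.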
